A study of Mus musculus with 22 samples.

Results

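Islet tumours of RIP1-Tag2 (RT2) mice were compared with normal islets, using every sample whose tissue label named one or the other: 5 islet tumours and 3 normal islets, 8 of the 22 samples of the series. In RT2 mice the rat insulin promoter drives a viral T antigen in pancreatic beta cells, and islets overgrow, draw in new vessels and, in some cases, become neuroendocrine tumours. Each sample was hybridised to 1 Affymetrix Mouse Gene ST array, and 19938 genes were measured. The islet tumour samples were titled I-9811, II-649, II-6415, III-8017 and III-8024, and the normal islet samples NormalI-93, Normal2006 and Normal2007; values for single arrays follow in this order. All of these samples, the normal islets included, carry the RT2 genotype in their labels, and no wild-type islets were among them. The sources used here do not give age, sex, the number of animals behind a sample, or which tissues were dissected and which isolated. The p-values therefore measure the spread between samples within groups, pooled over all 22 arrays of the series. That spread may be technical, and precision is limited by how many arrays there are.

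The T antigen is known to bind the retinoblastoma family of proteins, which hold back E2F transcription factors, and the tumour suppressor p53. E2F factors switch on genes of DNA synthesis, and the genes of mitosis follow them later in the cycle. A normal islet holds insulin-producing beta cells beside the alpha, delta and PP cells that make glucagon, somatostatin and pancreatic polypeptide, with vessels, macrophages and some exocrine cells around them.

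Both groups carried the defining products of beta cells. Ins2, an insulin gene, stood at 11.06, 11.05, 11.04, 10.98 and 10.93 in islet tumours, against 11.02, 11.04 and 10.91 in normal islets. The groups overlapped and Ins2 did not pass the test, at 0.02 ± 0.10 log2 (SE, adjusted p = 0.923). Iapp, the amyloid hormone stored with insulin, ranged from 13.29 to 13.53 in islet tumours and from 13.57 to 13.62 in normal islets, and its difference of -0.17 was not called either.

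The samples also differed in ways that the tissue labels do not name. Xist, the RNA of the inactive X chromosome, stood at 5.94, 5.81, 5.74, 5.97 and 6.46 in islet tumours, against 10.79, 11.41 and 11.23 in normal islets, high in every normal islet sample and low in every tumour. The Y-linked gene Eif2s3y stood at 9.60, 9.56, 9.37, 7.77 and 9.60 in islet tumours, against 8.55, 4.74 and 7.94 in normal islets, and Uty and Kdm5d, also Y-linked, followed it, with III-8017 lowest among the tumours and Normal2006 lowest of all 8 samples. Of 4 measured sex-linked genes 3 were called higher and Xist lower, and without Normal2006 none of the 3 Y-linked genes was called (0.93, adjusted p = 0.21 for Eif2s3y, 0.30, adjusted p = 0.565 for Uty and 0.35, adjusted p = 0.426 for Kdm5d, against 2.10, 1.31 and 1.04 log2 with it). Without I-9811, II-649, II-6415 or III-8024 only Eif2s3y was. NormalI-93 and Normal2007 held high Xist together with Eif2s3y signal well above that of Normal2006. Xist parted the groups in full, so sex and tissue cannot be told apart, in Xist or in any other gene called here. The summed signal of exocrine cells was uneven as well: the mean of 25 measured acinar genes stood at 11.33, 10.63, 11.16, 11.35 and 10.97 in islet tumours, against 10.72, 11.47 and 7.94 in normal islets, with Normal2007 far below every other sample. What exocrine tissue adds to other results was examined only through the acinar covariate given further on.

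Differences were wide. Of 19938 genes 5785 (29.0%) were called at an adjusted p below 0.05 in limma's moderated test over all 22 arrays: 2584 (13.0%) higher and 3201 (16.1%) lower in islet tumours. After centring each array on its median, the split was 2063 higher and 4170 lower, so that the share of higher calls moved to 33.1%, against 44.7% before. The median difference over all genes was -0.01 log2, and -0.07 after this centring. The values of the 5 tumours and the 3 normal islets did not overlap for 5555 genes (27.9%). Among called genes, 521 were higher and 384 lower by at least 1 log2, which is a doubling on the linear scale, and 135 were higher and 62 lower by at least 2 log2. Every list count below is to be read beside the shares over all genes, 13.0% called higher, 16.1% called lower and 27.9% without overlap. The list counts were not tested against these shares. Differences below are islet tumour minus normal islet on the log2 scale, with the standard error of the fit after ±. In bulk samples such as these, fewer cells of a type and less RNA per cell cannot be told apart.

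**Figure D1:**
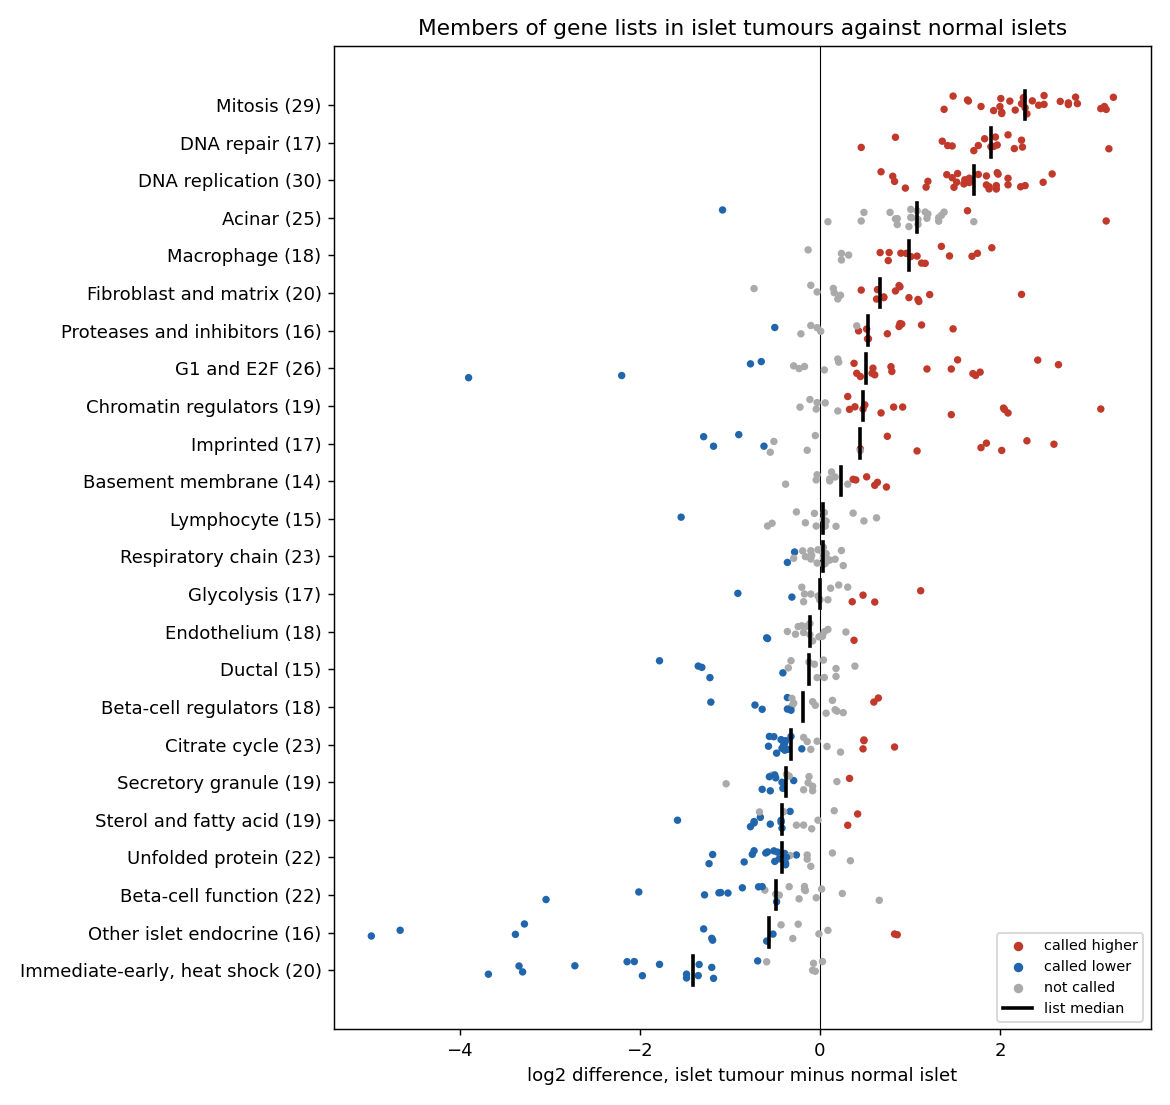
Each point is 1 measured gene of 24 gene lists, placed by its difference between islet tumours and normal islets (x axis, log2), with the number of measured members beside the list's name. Colour shows whether the gene was called higher, called lower or not called, and the black bar is the list median. Mitosis, DNA repair and DNA replication lie to the right of 0 in full, and immediate-early and heat shock genes have the lowest median.

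Genes of cell division formed the most uniform group among the lists, whose members were chosen with earlier results of these data known. Of 29 measured genes of mitosis 29 were called higher, with a median of 2.28 log2, and of 30 genes of DNA replication 30 were called higher, with a median of 1.71. All 17 measured genes of DNA repair and the replication checkpoint were also called higher (median 1.90). In none of these genes did a tumour overlap a normal islet. The spread lay within the normal islets: the mean over mitosis genes stood at 9.25, 9.21, 9.01, 9.53 and 9.62 in islet tumours, against 7.76, 6.85 and 6.36 in normal islets, with NormalI-93 the highest of the 3.

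The promoters of such genes often carry short motifs known to bind E2F factors or the factors of late cell cycle genes, and 4 are shown here because their genes stand for the 2 phases. Each sequence is the 250 bases before the gene's start, from RefSeq on GRCm38.p6, read in the direction of transcription. Capitals mark the E2F motif (TTTGGCGC or TTTCCCGC, either strand) in the replication genes Mcm6, a subunit of the helicase that opens DNA (chr1:128359706-128359955, minus strand), and Cdc6, which loads that helicase (chr11:98907901-98908150, plus strand).
Mcm6: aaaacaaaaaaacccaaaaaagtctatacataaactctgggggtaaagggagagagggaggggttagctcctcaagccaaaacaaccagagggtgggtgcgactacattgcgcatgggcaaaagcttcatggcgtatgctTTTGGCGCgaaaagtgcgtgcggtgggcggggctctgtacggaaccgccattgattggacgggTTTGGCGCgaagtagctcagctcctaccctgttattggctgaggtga
Cdc6: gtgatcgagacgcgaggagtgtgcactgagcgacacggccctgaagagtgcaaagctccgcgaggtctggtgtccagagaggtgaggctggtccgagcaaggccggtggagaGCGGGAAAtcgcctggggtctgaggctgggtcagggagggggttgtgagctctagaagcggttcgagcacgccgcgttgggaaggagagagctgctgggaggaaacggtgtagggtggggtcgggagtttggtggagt
In the mitosis genes Cdk1, the kinase that starts mitosis (chr10:69352913-69353162, minus strand), and Top2a, the topoisomerase that untangles chromosomes (chr11:99024190-99024439, minus strand), capitals mark the CHR motif (TTTGAA) and the CCAAT box (CCAAT), either strand.
Cdk1: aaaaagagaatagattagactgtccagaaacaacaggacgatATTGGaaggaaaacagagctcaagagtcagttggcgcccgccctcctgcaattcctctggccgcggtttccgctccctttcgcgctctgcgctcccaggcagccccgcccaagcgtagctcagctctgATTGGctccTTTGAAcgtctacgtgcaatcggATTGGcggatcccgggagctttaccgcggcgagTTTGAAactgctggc
Top2a: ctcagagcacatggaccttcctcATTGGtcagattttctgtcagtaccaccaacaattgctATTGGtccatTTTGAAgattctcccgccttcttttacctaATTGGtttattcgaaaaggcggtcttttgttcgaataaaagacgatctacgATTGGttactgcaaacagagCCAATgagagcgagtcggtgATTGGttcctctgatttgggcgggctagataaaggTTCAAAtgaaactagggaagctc
The E2F motif was found in 6 of 30 windows of the replication list (20.0%, 26 genes matched) and in 1.30% of all 32851 windows. The CHR motif was found in 11 of 26 windows of the mitosis list (42.3%, 24 genes matched) and in 16.0% of all windows, and the CCAAT box in 20 of the 26 (76.9%) and in 33.8% of all. The CCAAT box does not set the mitosis list apart. It was also found in 60.0% of windows of the replication list and in 84.2% of windows of the unfolded protein list described further on. These are matches of letters, and binding was not measured.

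Among the genes printed above, Mcm6 stood at 10.12, 10.55, 10.44, 10.39 and 10.28 in islet tumours, against 9.01, 8.0 and 7.77 in normal islets. Cdc6, much dimmer, stood at 8.17, 8.14, 8.17, 8.45 and 8.53 in islet tumours, against 7.11, 6.19 and 5.68 in normal islets. Cdk1 stood at 8.82, 9.04, 8.79, 9.25 and 9.19 in islet tumours, against 7.47, 6.63 and 6.19 in normal islets. Every tumour exceeded every normal islet in all 3 genes, and among the normal islets NormalI-93 was nearest to the tumours. The differences were 2.09 ± 0.18 log2 (SE, adjusted p = 1.83e-08), 1.97 ± 0.22 (adjusted p = 5.42e-07) and 2.26 ± 0.20 (adjusted p = 2.97e-08), a 4.26-fold, 3.91-fold and 4.79-fold rise.

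Other replication genes with large rises were the polymerase genes Pole (2.58) and Pola1 (2.23), Mcm3 of the helicase (2.48) and Rrm2, which makes deoxynucleotides (2.28). The smallest rise of the list was that of thymidine kinase Tk1, 0.68 ± 0.10 (adjusted p = 1.92e-05). Tk1 was also the steadiest in normal islets, where it ranged only between 7.77 and 7.89.

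The 15 largest rises of all called genes without overlap held 11 that act in division or DNA metabolism. Bub1, a kinase of the spindle checkpoint, had the largest and stood at 9.37, 9.19, 9.11, 9.62 and 9.62 in islet tumours, against 7.47, 5.63 and 5.27 in normal islets. Its difference was 3.26 ± 0.32 log2 (SE, adjusted p = 8.5e-08), 9.57-fold. With only the 8 compared arrays in the fit, its adjusted p was 0.000165. Neil3, a DNA glycosylase of proliferating cells, stood at 10.65, 10.26, 9.81, 10.54 and 10.69 in islet tumours, against 8.53, 7.03 and 5.98 in normal islets. The difference was 3.21 ± 0.33 (adjusted p = 1.69e-07). Top2a stood at 10.89, 10.84, 10.73, 11.08 and 11.23 in islet tumours, against 9.20, 7.30 and 6.86 in normal islets, a rise of 3.16 ± 0.31 (adjusted p = 1.21e-07). The proliferation marker Mki67, the spindle motors Kif11 and Kif20b, the kinetochore gene Knl1, the condensin gene Ncapg, the cytokinesis genes Ect2 and Anln and Hells, a chromatin remodeller, rose by 2.84 to 3.18. The remaining 4 were Prss3 and Reg3b of exocrine tissue and Clec4n and Ms4a4a of macrophages, described further on.

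**Figure D2:**
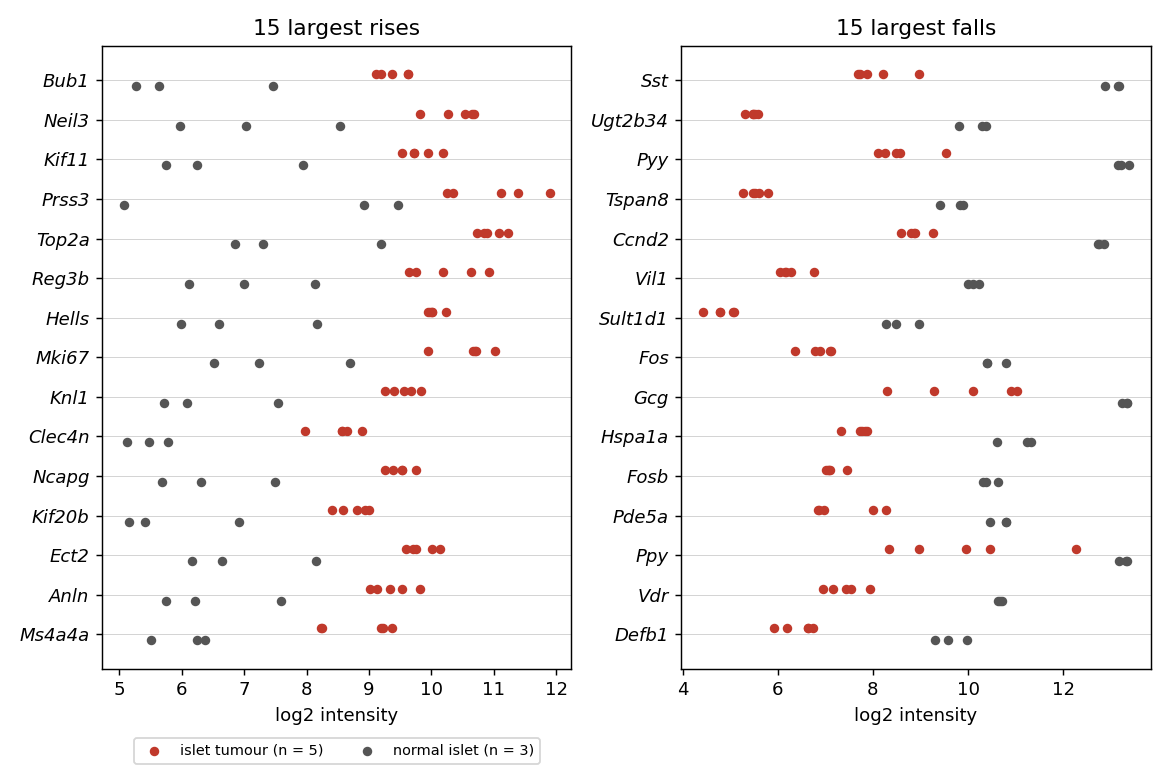
Single arrays for the 15 largest rises (left) and the 15 largest falls (right) among called genes whose groups do not overlap, with log2 intensity on the x axis, islet tumours (n = 5) drawn above normal islets (n = 3) for each gene. In the division genes the normal islets are spread more widely than the tumours, and among the falls the tumours vary most in Gcg and Ppy.

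DNA repair and chromatin genes moved with replication. Brca1, of homologous recombination, stood at 8.52, 8.66, 8.62, 8.72 and 8.83 in islet tumours, against 7.03, 6.32 and 5.94 in normal islets, 2.24 ± 0.18 (adjusted p = 1.28e-08). Fancd2, of crosslink repair (2.25), and the nuclease Exo1 (1.95) rose likewise, while the uracil glycosylase Ung rose least (0.46). Of 19 chromatin regulators 13 were called higher and 0 lower, with a median of 0.48. Ezh2, the Polycomb histone methyltransferase, stood at 9.89, 10.03, 9.78, 9.91 and 10.07 in islet tumours, against 8.41, 7.86 and 7.39 in normal islets, 2.05 ± 0.17 (adjusted p = 1.59e-08). Uhrf1 and Dnmt1, which copy DNA methylation to the new strand, rose by 2.04 and 1.46. The de novo methyltransferase Dnmt3b was not called (0.06).

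The regulators of entry into the cycle did not all go one way. Of 26 measured genes of the G1 phase and of the E2F and retinoblastoma families, 16 were called higher and 4 lower. All 3 D-type cyclins, which carry growth signals to the kinases Cdk4 and Cdk6, were among the 4 that fell. Ccnd2 stood at 8.60, 8.89, 8.86, 8.79 and 9.27 in islet tumours, against 12.76, 12.73 and 12.87 in normal islets. No tumour came within 3 log2 of a normal islet, and the fall was -3.90 ± 0.18 log2 (SE, adjusted p = 3.76e-12). Ccnd1 stood at 8.13, 8.41, 8.42, 8.08 and 8.54 in islet tumours, against 10.53, 10.57 and 10.46 in normal islets, -2.20 ± 0.11 (adjusted p = 2.09e-11). Ccnd3 fell by less (-0.65), and the fourth, E2f5, a repressor of the E2F family, fell by 0.77. Their partner Cdk4 overlapped between the groups, from 10.41 to 10.83 in islet tumours and from 10.46 to 10.76 in normal islets, and was not called (0.05 ± 0.09 (adjusted p = 0.74)).

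Among the 16 that rose, E2f8, an E2F made late in the cycle that represses E2F targets, stood at 8.30, 8.91, 8.77, 8.68 and 9.08 in islet tumours, against 7.04, 5.93 and 5.32 in normal islets, 2.65 ± 0.26 (adjusted p = 1.06e-07). Its relative E2f7 rose by 1.78, the E-type cyclins Ccne2 and Ccne1 by 1.73 and 1.19, their kinase Cdk2 by 1.53 and the retinoblastoma relative Rbl1 by 1.70. The Cdk4 inhibitor gene Cdkn2c, which encodes p18, stood at 10.41, 10.96, 10.56, 10.85 and 10.92 in islet tumours, against 9.33, 8.17 and 7.47 in normal islets, 2.42 ± 0.25 (adjusted p = 2.2e-07). Cdkn2a, the Ink4a and Arf locus, stood at 8.17, 8.71, 8.43, 8.25 and 8.44 in islet tumours, against 7.41, 6.89 and 6.53 in normal islets, 1.46 ± 0.15 (adjusted p = 2.5e-07). In both genes the lowest tumour lay above the highest normal islet.

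Genes known to answer to p53 were mixed. Of 19 measured, 2 were called higher and 7 lower (median -0.14), with 4 lower without Normal2006, Normal2007, I-9811 or III-8024, and 1 higher without any 1 of the normal islet samples or of I-9811, II-649 and III-8017. Btg2, which also belongs to the immediate-early list, fell by 2.06, the kinase gene Plk3 fell by 0.93, and Gadd45a, of the damage response, rose by 0.98. Mdm2, the best known target of p53, was not called, at -0.01 ± 0.08 (adjusted p = 0.94).

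**Figure D3:**
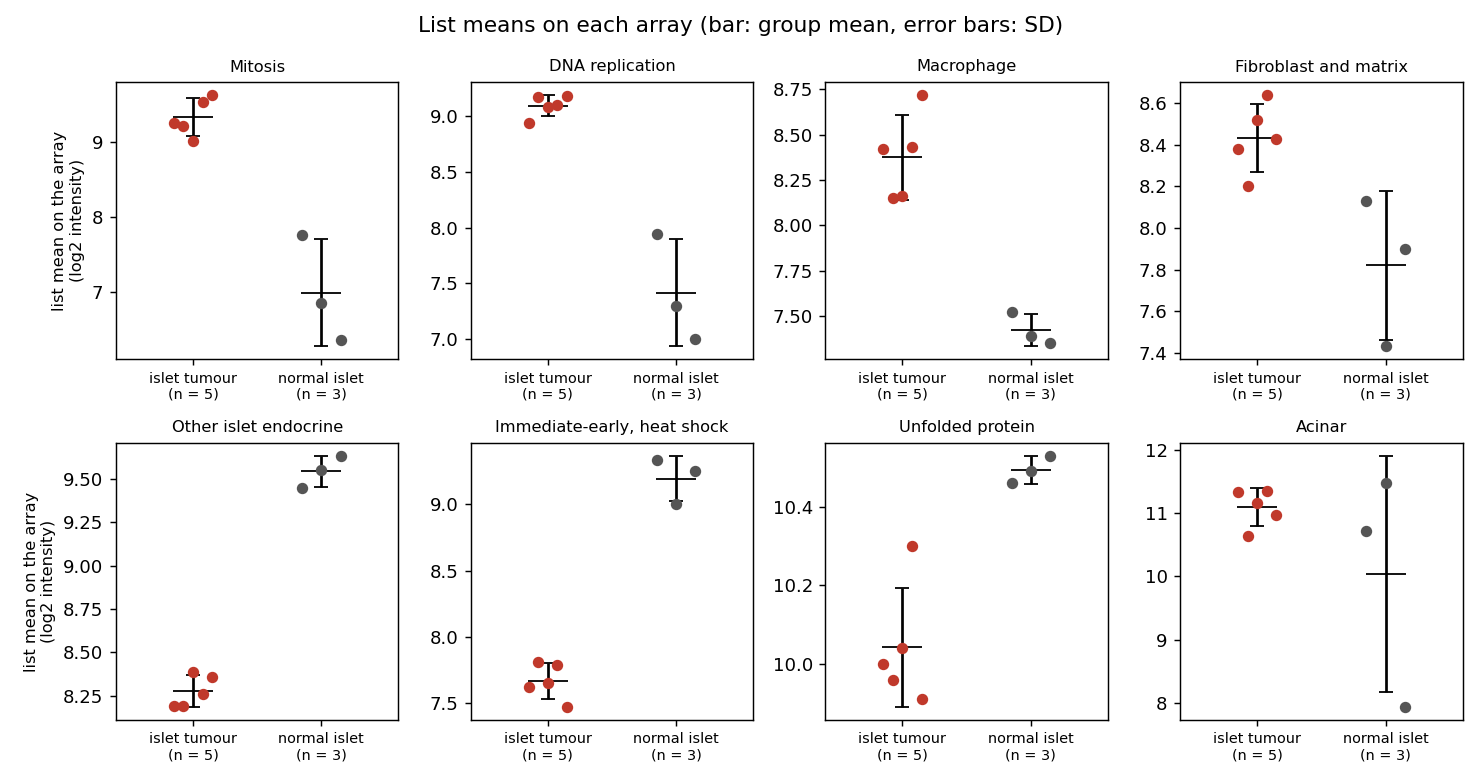
Mean log2 intensity over the members of 8 gene lists on each array (points), with the group mean (bar) and SD (error bars) for islet tumours (n = 5, left) and normal islets (n = 3, right). Tumours and normal islets separate in all lists shown but the acinar one, where Normal2007 lies at 7.94.

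Hormone genes of the other endocrine cells of the islet were among the largest falls of the comparison. Of 16 measured genes of alpha, delta, PP and ghrelin cells 9 were called lower and 2 higher, with a median of -0.56 log2. Sst, the somatostatin gene of delta cells, is shown with its promoter because its cyclic AMP response element, TGACGTCA, in capitals, is a textbook site of hormone gene control (chr16:23890845-23891094, minus strand, the 250 bases before the start, RefSeq GRCm38.p6).
Sst: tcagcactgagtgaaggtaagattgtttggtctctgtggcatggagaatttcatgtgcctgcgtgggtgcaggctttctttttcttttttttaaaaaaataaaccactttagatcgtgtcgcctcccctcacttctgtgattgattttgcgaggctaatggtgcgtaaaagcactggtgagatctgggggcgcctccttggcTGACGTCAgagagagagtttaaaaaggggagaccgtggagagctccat
That motif was found in 1.55% of all windows and in 2 of 19 windows of this list (10.5%, 12 genes matched).

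Sst stood at 7.68, 7.72, 7.87, 8.22 and 8.97 in islet tumours, against 12.88, 13.16 and 13.17 in normal islets. The fall was -4.98 ± 0.22 log2 (SE, adjusted p = 1.59e-12), 31.5-fold. Pyy, peptide YY, stood at 8.25, 8.57, 8.49, 8.11 and 9.53 in islet tumours, against 13.15, 13.21 and 13.39 in normal islets, -4.66 ± 0.24 (adjusted p = 1.65e-11). In both genes III-8024 kept the highest level among the tumours and still lay more than 3 log2 under every normal islet. The glucagon gene Gcg stood at 10.11, 8.30, 9.29, 11.03 and 10.90 in islet tumours, against 13.24, 13.34 and 13.34 in normal islets, -3.38 ± 0.45 (adjusted p = 6.02e-06). The pancreatic polypeptide gene Ppy stood at 8.97, 10.46, 12.27, 8.33 and 9.96 in islet tumours, against 13.17, 13.35 and 13.32 in normal islets, -3.28 ± 0.51 (adjusted p = 4.09e-05). The tumours differed from each other in these 2 hormones: II-649 was lowest for Gcg, III-8017 was lowest for Ppy and highest for Gcg, and II-6415 was highest for Ppy, within 1 log2 of NormalI-93. The spread of the tumours was 1.15 for Gcg and 1.52 for Ppy (SD), against 0.54 for Sst.

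Among factors and other products of these cells, Hhex, a delta cell factor, stood at 6.73, 6.43, 6.36, 6.52 and 6.63 in islet tumours, against 7.45, 7.84 and 7.88 in normal islets, -1.19 ± 0.16 (adjusted p = 5.48e-06). Irx1, of alpha cells, fell by 0.59, and the ghrelin gene Ghrl fell by 0.52. Irx2 (-0.24) and Pou3f4 (0.09), also of alpha cells, were not called. The carriers Ttr and Rbp4, abundant in alpha cells, fell (-1.29 and -1.20). The 2 genes that rose were Etv1 (0.83) and the somatostatin receptor gene Sstr5, which stood at 7.01, 6.75, 6.78, 7.41 and 6.72 in islet tumours, against 6.30, 5.89 and 6.04 in normal islets.

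Beta cell genes of glucose sensing and secretion were lower in part. Of 22 measured genes of beta cell function 10 were called lower (7 without NormalI-93 or Normal2007), with a median of -0.49. Slc2a2, the glucose transporter Glut2, stood at 8.63, 8.85, 8.71, 10.52 and 9.87 in islet tumours, against 12.39, 12.16 and 12.51 in normal islets. The fall was -3.04 ± 0.33 log2 (SE, adjusted p = 4.35e-07), 8.22-fold, and the tumours themselves spread over nearly 2 log2, with both prefix III tumours highest. Kcnk16, a potassium channel of beta cells, stood at 8.23, 9.16, 9.19, 8.45 and 10.07 in islet tumours, against 11.05, 10.98 and 11.08 in normal islets, -2.01 ± 0.35 (adjusted p = 0.000135). III-8024 was the highest tumour and still lay under every normal islet.

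The incretin receptor gene Gipr stood at 8.59, 8.98, 9.23, 8.77 and 8.96 in islet tumours, against 10.14, 10.25 and 10.17 in normal islets, -1.28 ± 0.11 (adjusted p = 1.95e-08). Ucn3, a marker of mature beta cells, fell by 1.02, and Ero1b, an oxidase for folding insulin, fell by 0.86. The phosphatase gene G6pc2 fell by 1.10 ± 0.30 (adjusted p = 0.00822), a call that quantile normalization ended (adjusted p = 0.055). Glp1r, the other incretin receptor (-0.49), and Abcc8, the sulphonylurea receptor (-0.61), were not called, and Abcc8 varied from 10.26 to 11.90 among tumours.

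Among 18 measured transcription factors of beta cells 6 were called lower and 2 higher (median -0.19), and 3 lower without NormalI-93. Nkx6-1, which keeps beta cells distinct from other islet cells, stood at 9.42, 9.17, 8.97, 9.68 and 9.30 in islet tumours, against 10.64, 10.44 and 10.49 in normal islets, -1.21 ± 0.20 (adjusted p = 8.88e-05). Mafa, which drives insulin and glucose response genes in mature cells, fell by 0.72, and Foxa2 fell by 0.36. Rfx6 and Myt1, factors of endocrine differentiation, rose by 0.60 and 0.65. Pdx1 (-0.31), Neurod1 (0.07) and Isl1 (0.14), all central to islet identity, were not called. Of 14 regulators of pancreatic progenitors, Onecut2 rose by 0.64, Gata6 fell by 1.36 and Neurog3, the switch to the endocrine lineage, fell by 0.88, and 11 were not called.

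Genes that beta cells normally keep silent were mostly not called: of 20 measured 6 were higher and 1 lower, and 3 were higher without Normal2006 or without Normal2007. Slc16a1, the lactate and pyruvate carrier Mct1, stood at 7.14, 6.98, 6.96, 7.08 and 6.69 in islet tumours, against 5.85, 5.65 and 6.05 in normal islets, 1.12 ± 0.14 (adjusted p = 3.55e-06). Ldha, lactate dehydrogenase, was not called (-0.17), and Cd59a, a complement inhibitor, fell by 2.52.

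Immediate-early and heat shock genes, which answer within minutes to growth factors, handling or heat, were called lower in 15 of 20 cases and higher in none, with a median of -1.41. Fos stood at 7.11, 7.1, 6.35, 6.89 and 6.78 in islet tumours, against 10.79, 10.39 and 10.39 in normal islets. The fall was -3.68 ± 0.20 log2 (SE, adjusted p = 3.31e-11), 12.8-fold. Its partner Jun stood at 8.34, 8.07, 8.21, 8.55 and 7.78 in islet tumours, against 11.16, 10.68 and 10.89 in normal islets, -2.72 ± 0.16 (adjusted p = 1.95e-10). The inducible chaperone Hspa1a stood at 7.88, 7.33, 7.84, 7.76 and 7.73 in islet tumours, against 11.32, 10.61 and 11.23 in normal islets, -3.34 ± 0.20 (adjusted p = 1.36e-10). Neither gene nor Fos had a tumour within 2 log2 of a normal islet. Fosb (-3.30), Egr1 (-2.14), Dusp1 (-1.97) and the co-chaperone Dnajb1 (-1.78) fell too, while Egr2 (-0.07) and Nr4a1 (-0.59) were not called. Nr4a1 was uneven among tumours, at 10.37 in II-649 and 7.28 in III-8024. The sources do not say which samples were isolated and which dissected, and this and the tissue cannot be told apart here.

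Genes of protein folding in the endoplasmic reticulum were lower in part. Of 22 genes of the unfolded protein response 16 were called lower (median -0.42), with 12 lower without Normal2007 and 13 without NormalI-93. Quantile normalization ended the calls of the folding genes Calr, Hyou1, Pdia4 and Pdia6 (adjusted p = 0.305, 0.113, 0.0597 and 0.0713). The promoter of Hspa5, the chaperone BiP, is shown for its ER stress element, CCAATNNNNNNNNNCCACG on either strand, in capitals (chr2:34771840-34772089, plus strand, the 250 bases before the start, RefSeq GRCm38.p6).
Hspa5: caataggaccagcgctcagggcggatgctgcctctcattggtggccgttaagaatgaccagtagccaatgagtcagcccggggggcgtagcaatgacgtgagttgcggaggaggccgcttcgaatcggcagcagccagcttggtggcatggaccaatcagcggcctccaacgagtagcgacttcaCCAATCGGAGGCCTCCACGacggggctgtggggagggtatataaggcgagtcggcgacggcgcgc
The element was found in 6 of 19 windows of the list (31.6%) and in 0.113% of all windows.

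Hspa5 itself stood at 11.88, 11.66, 11.90, 12.01 and 11.76 in islet tumours, against 12.28, 12.05 and 12.34 in normal islets. The groups were parted by a small gap, and the fall of -0.38 ± 0.10 log2 (SE, adjusted p = 0.00629) was not called after quantile normalization (adjusted p = 0.0751). Dnajb9, a co-chaperone of BiP, fell further and stood at 10.01, 9.59, 9.80, 10.22 and 9.86 in islet tumours, against 10.97, 11.23 and 11.19 in normal islets, -1.23 ± 0.14 (adjusted p = 8.84e-07). Sdf2l1 (-1.19), Herpud1, of protein degradation (-0.75), and the stress factor Atf4 (-0.84) fell, while Ddit3, the death-linked factor Chop, was not called (0.14). Of 19 genes of the secretory granule 8 were called lower and 1 higher (4 lower after quantile normalization). Chga, the granule protein chromogranin A, ranged from 12.46 to 12.78 in islet tumours and from 13.15 to 13.21 in normal islets (-0.55 ± 0.12 (adjusted p = 0.000821)), with adjusted p = 0.117 after quantile normalization, and its relative Chgb was not called (-0.08).

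Sterol synthesis genes were lower on balance. Of 19 genes of sterol and fatty acid metabolism 10 were called lower (7 without NormalI-93) and 2 higher (1 without Normal2006), with a median of -0.42. Insig1, which the sterol sensor pathway induces and which restrains it, stood at 9.22, 9.62, 9.48, 9.79 and 9.14 in islet tumours, against 11.08, 11.00 and 11.02 in normal islets, -1.58 ± 0.11 (adjusted p = 2.37e-09). The enzymes Fdft1, Sqle and Hmgcs1 fell (-0.77, -0.73 and -0.73), and Srebf1, which encodes the master factor SREBP-1, fell by 0.55. The fatty acid synthase gene Fasn was one of the 2 that rose (0.42).

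In central carbon metabolism the changes were small. Of 23 citrate cycle and pyruvate genes 13 were called lower and 4 higher (median -0.32), with 9 lower and 3 higher without Normal2006. Fh1, fumarase, ranged from 9.25 to 9.58 in islet tumours and from 9.92 to 10.01 in normal islets, -0.57 ± 0.08 (adjusted p = 6.05e-06). Suclg1 (-0.56), the pyruvate dehydrogenase gene Pdha1 (-0.51) and pyruvate carboxylase Pcx (-0.48), which beta cells use to refill the cycle, fell. The dicarboxylate carrier Slc25a10 stood at 8.96, 9.04, 8.78, 9.17 and 8.90 in islet tumours, against 8.32, 8.08 and 8.03 in normal islets, 0.83 ± 0.10 (adjusted p = 1.45e-06), and Idh3a (0.49) rose too. Of 23 respiratory chain genes 2 were called lower and 0 higher, with 0 to 2 lower when single arrays were left out and 2 higher without Normal2006. Of 17 glycolysis genes 4 were called higher, Pfkp among them (0.61), and 2 lower, or 1 lower without NormalI-93, Normal2007 or II-649. Of 22 genes of serine, one-carbon and nucleotide synthesis 5 were called higher (3 without Normal2006 or Normal2007) and 5 lower (3 without NormalI-93 or III-8024). Psat1, of serine synthesis, stood at 8.79, 9.05, 8.82, 9.58 and 8.62 in islet tumours, against 7.87, 7.52 and 7.47 in normal islets, 1.35 ± 0.17 (adjusted p = 1.9e-06), and Shmt1 rose by 1.01, while the folate enzymes Mthfd1l and Mthfd1 fell (-0.66 and -0.63).

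Of 20 measured genes that hypoxia induces 1 was called higher (2 without NormalI-93) and 6 lower (median -0.17). The lower count was 4 without I-9811, III-8024, Normal2007 or NormalI-93, and 7 without II-649. Over all genes, 13.0% were called higher and 16.1% lower. Bnip3, a mitophagy receptor, stood at 8.36, 8.90, 7.95, 8.75 and 8.52 in islet tumours, against 9.97, 10.39 and 10.05 in normal islets, -1.64 ± 0.20 (adjusted p = 2.08e-06). Ddit4, an inhibitor of mTOR, fell by 1.63, and the 1 that rose was the oxygen sensor Egln3 (0.81).

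Igf2, the growth factor known as a survival signal of RT2 tumours, stood at 11.22, 11.20, 10.62, 11.21 and 10.91 in islet tumours, against 9.51, 8.45 and 7.33 in normal islets. The rise was 2.60 ± 0.32 log2 (SE, adjusted p = 2.33e-06), 6.08-fold, and NormalI-93, the normal islet sample with the highest division genes, was also highest in Igf2. The imprinted neuronal gene Nnat stood at 12.01, 11.53, 10.92, 12.12 and 11.72 in islet tumours, against 10.40, 9.38 and 8.31 in normal islets, 2.30 ± 0.37 (adjusted p = 5.09e-05). Plagl1, an imprinted factor, stood at 9.99, 10.32, 9.53, 10.60 and 10.00 in islet tumours, against 8.54, 7.80 and 7.85 in normal islets, 2.02 ± 0.20 (adjusted p = 1.39e-07). Of 17 imprinted genes 8 were called higher and 4 lower. The retrotransposon-derived gene Peg10 and the Notch relative Dlk1 rose by 1.79 and 1.85, with a wide spread among tumours, where Dlk1 ranged from 8.13 to 10.23. Sgce and Mest fell (-1.29 and -1.18). Of 15 genes of the IGF axis 3 were called higher, Igf2 included (2 without Normal2006), and 3 lower. Igf1 rose by 1.16, the receptor gene Igf1r fell by 1.0, the binding protein gene Igfbp5 fell by 0.74, and Igfals, the acid-labile carrier subunit, fell by 1.57.

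Macrophage genes were higher. Of 18 measured 14 were called higher and 0 lower, with a median of 0.99, and the list mean stood at 8.42, 8.15, 8.16, 8.43 and 8.72 in islet tumours, against 7.52, 7.39 and 7.35 in normal islets. The lysozyme gene Lyz2 stood at 10.73, 10.83, 10.40, 10.80 and 10.73 in islet tumours, against 9.16, 8.67 and 8.53 in normal islets, 1.91 ± 0.25 (adjusted p = 5.13e-06). Cd68, a lysosomal marker, stood at 9.55, 9.40, 9.17, 9.61 and 10.00 in islet tumours, against 8.06, 7.89 and 7.46 in normal islets, 1.75 ± 0.17 (adjusted p = 7.52e-08). Mpeg1, a pore protein of phagocytes (1.69), the complement chains C1qc (1.44) and C1qb (1.35) and the receptor gene Csf1r (0.90) rose with them. Cd14 (-0.13) and Cd163 (0.24) were not called and stayed between 5.40 and 6.41 log2 on all 8 arrays. The largest rises in this class lay outside the list: the C-type lectin Clec4n stood at 8.57, 8.65, 7.97, 8.56 and 8.88 in islet tumours, against 5.78, 5.47 and 5.13 in normal islets, 3.07 ± 0.26 (adjusted p = 1.83e-08), and Ms4a4a rose by 2.82. The proteases of phagocytes, cathepsins Ctsc and Ctss, rose by 1.48 and 1.13, within a list of 16 proteases and inhibitors of which 10 were called higher and 1, Ctsl, lower; Ctsl was not called without Normal2006.

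Of 15 lymphocyte genes 1 was called lower and 0 higher, and of 10 neutrophil genes 1 was called higher. The lymphocyte gene was Jchain, of plasma cells, at 5.58, 5.46, 5.0, 5.96 and 6.28 in islet tumours, against 7.95, 7.87 and 5.78 in normal islets, with NormalI-93 and Normal2006 high and Normal2007 among the tumours. It was not called without NormalI-93 or Normal2006 (adjusted p = 0.18 and 0.186), nor without I-9811, II-649 or II-6415 (0.0578 to 0.0759).

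Connective tissue genes rose in part. Of 20 fibroblast and matrix genes 13 were called higher (median 0.67), with 9 higher and 1 lower without Normal2006. The groups did not overlap in 10 of the 20, against 27.9% of all genes. The list mean stood at 8.38, 8.20, 8.52, 8.64 and 8.43 in islet tumours, against 8.13, 7.43 and 7.90 in normal islets, lowest in Normal2006. Fibronectin, Fn1, stood at 9.37, 9.22, 9.73, 9.87 and 9.67 in islet tumours, against 8.02, 6.99 and 6.99 in normal islets, 2.24 ± 0.19 (adjusted p = 2.2e-08). The matrix protein Mgp stood at 9.06, 9.41, 9.24, 8.97 and 8.67 in islet tumours, against 7.85, 7.91 and 7.78 in normal islets, 1.22 ± 0.21 (adjusted p = 0.00014). The collagen Col1a1 (1.10), the metalloproteinase Mmp2 (0.88) and its inhibitor Timp1 (0.89) rose, and the proteoglycans Dcn (-0.73) and Lum (0.23) were not called. Of 14 basement membrane genes 6 were called higher (2 without Normal2006), among them laminin Lamb1 (0.74) and collagen Col4a2 (0.52), and of 12 pericyte and muscle genes 4 (2 without Normal2006), among them Rgs5 (0.76).

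Vessel genes were called in few cases among markers of endothelium and at about the share of all genes among vessel ligands and receptors. Of 18 endothelial genes 1 was called higher and 2 lower, with 0 to 2 higher and 1 to 3 lower when single arrays were left out, and in none did the groups part without overlap. Pecam1 stood at 8.64, 9.0, 8.89, 8.69 and 8.99 in islet tumours, against 8.92, 8.49 and 9.15 in normal islets, -0.01 ± 0.16 (adjusted p = 0.966). Of 20 vessel ligands and receptors 4 were called higher and 2 lower, with 1 to 3 lower when single arrays were left out. The vascular growth factor Vegfa stood at 10.46, 11.01, 10.57, 10.42 and 10.61 in islet tumours, against 10.96, 10.73 and 10.96 in normal islets, -0.27 ± 0.12 (adjusted p = 0.0949), overlapping as well. The receptor gene Flt1 fell by 0.58 and the tip cell gene Esm1 fell by 0.82, while the guidance gene Sema3a, at 8.13, 6.89, 7.04, 7.58 and 7.22 in islet tumours, against 6.18, 5.51 and 5.84 in normal islets, rose by 1.53 ± 0.34 (adjusted p = 0.00139). The growth factor gene Fgf2 (0.49) and the apelin receptor gene Aplnr (0.62) rose too.

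Genes of ducts and of cell adhesion changed in part. Of 15 ductal genes 5 were called lower and 0 higher (3 lower without Normal2007). Cldn7, a claudin of tight junctions, stood at 7.12, 7.46, 7.72, 7.67 and 7.28 in islet tumours, against 9.12, 9.37 and 9.18 in normal islets, -1.78 ± 0.14 (adjusted p = 7.7e-09). Krt18, a keratin of simple epithelia, stood at 8.20, 8.39, 8.21, 9.05 and 8.38 in islet tumours, against 9.51, 10.00 and 9.78 in normal islets, -1.31 ± 0.19 (adjusted p = 1.29e-05). Krt19, the duct keratin, ranged from 6.33 to 7.31 in islet tumours and from 7.30 to 8.74 in normal islets, and its fall of -1.35 ± 0.36 (adjusted p = 0.00614) was not called without Normal2007 (adjusted p = 0.0688). E-cadherin, Cdh1, stood at 9.16, 9.18, 9.77, 10.00 and 9.80 in islet tumours, against 10.72, 10.53 and 10.81 in normal islets, -1.10 ± 0.24 (adjusted p = 0.00106). Of 19 adhesion genes, Cdh1 among them, 5 were called lower and 5 higher (3 higher without Normal2006), with a median of -0.02. The claudins Cldn4 (-1.45) and Cldn3 (-0.80), Epcam (-0.88) and Gjd2, the gap junction protein of beta cells (-1.14), fell. Among those that rose were the claudin Cldn1 (1.21), the neural adhesion gene Ncam1 (0.55) and Zeb1 (0.38), a factor known to repress epithelial genes.

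The 15 largest falls also held 7 genes other than hormones, early genes and Ccnd2. Ugt2b34, a glucuronosyltransferase, stood at 5.48, 5.52, 5.59, 5.31 and 5.48 in islet tumours, against 10.37, 9.82 and 10.30 in normal islets. The fall was -4.69 ± 0.15 log2 (SE, adjusted p = 2.01e-14), 25.8-fold, with both groups tight. Tspan8, a tetraspanin, stood at 5.61, 5.48, 5.27, 5.80 and 5.51 in islet tumours, against 9.42, 9.90 and 9.84 in normal islets, -4.19 ± 0.20 (adjusted p = 8.33e-12). Vil1, the microvillus protein villin, stood at 6.14, 6.75, 6.28, 6.05 and 6.18 in islet tumours, against 10.11, 10.00 and 10.24 in normal islets, -3.84 ± 0.18 (adjusted p = 5.55e-12). No tumour reached 7 log2 in any of these 3 genes. The sulphotransferase Sult1d1 (-3.75), the vitamin D receptor Vdr (-3.26), the defensin Defb1 (-3.20) and the phosphodiesterase Pde5a (-3.29) fell too. Asb11, of a ubiquitin ligase family and not among the 15 largest falls, changed by -3.06.

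Few acinar genes were called. Of 25 measured 2 were called higher and 1 lower, around a median difference of 1.08 log2, with 9 higher without Normal2006 and 1 to 3 higher without any other array. Cpa1, carboxypeptidase, stood at 12.81, 12.68, 12.91, 12.97 and 12.83 in islet tumours, against 12.69, 13.12 and 9.67 in normal islets, with Normal2007 more than 3 log2 under the rest, and was not called (1.02 ± 0.55 (adjusted p = 0.186)). Prss3, a trypsin, stood at 11.39, 10.25, 11.11, 11.90 and 10.34 in islet tumours, against 8.92, 9.47 and 5.07 in normal islets. The rise was 3.18 ± 0.73 (adjusted p = 0.00203), and 1.80 ± 0.58 (adjusted p = 0.0258) without Normal2007. Reg3b, a lectin of stressed exocrine tissue, stood at 9.64, 9.75, 10.63, 10.93 and 10.19 in islet tumours, against 6.99, 8.13 and 6.12 in normal islets, 3.15 ± 0.54 (adjusted p = 0.00011). Bhlha15, the acinar factor Mist1, fell by 1.08. Hepatocyte genes, a guard against liver tissue, were called lower in 4 of 20 cases (2 without Normal2006) and higher in none. The lower count is near the share over all genes, where 16.1% were called lower and 13.0% higher. Albumin overlapped, from 6.04 to 8.24 in islet tumours and from 6.12 to 8.10 in normal islets. With the acinar mean of each array as a covariate and the acinar genes left out, 5846 of 19913 genes were called, against 5785 without it. These totals do not show whether the same genes were called. Among called genes chosen by the naming rule, 186 kept their call in this fit and 2 lost it, and the rise of Reg3b was 2.40.

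The levels of leading genes in the intermediate stages were set beside the comparison as a description, without a test. Mki67 averaged 7.49 ± 1.11 in normal islets, 10.13 ± 0.11 in hyperplastic islets, 10.49 ± 0.13 in angiogenic islets and 10.61 ± 0.40 in islet tumours. Ccnd2 averaged 12.79 ± 0.07 in normal islets, 11.09 ± 0.22 in hyperplastic islets, 10.54 ± 0.31 in angiogenic islets and 8.88 ± 0.24 in islet tumours. Sst averaged 13.07 ± 0.16 in normal islets, 12.52 ± 0.08 in hyperplastic islets, 11.80 ± 0.37 in angiogenic islets and 8.09 ± 0.54 in islet tumours. Mki67 thus stood near its tumour level in hyperplastic islets already, Ccnd2 stood between the ends in both intermediate stages, and Sst was nearer to its normal than to its tumour level in both. Fos averaged 10.52 ± 0.23 in normal islets, 10.83 ± 0.26 in hyperplastic islets, 10.32 ± 0.26 in angiogenic islets and 6.85 ± 0.31 in islet tumours, so that all islet stages lay together and tumours apart. Slc2a2 averaged 12.35 ± 0.18 in normal islets, 11.87 ± 0.09 in hyperplastic islets, 11.37 ± 0.29 in angiogenic islets and 9.31 ± 0.84 in islet tumours. Vil1 averaged 10.11 ± 0.12 in normal islets, 8.16 ± 0.29 in hyperplastic islets, 7.46 ± 0.56 in angiogenic islets and 6.28 ± 0.27 in islet tumours, lower at each stage. Fn1 averaged 7.34 ± 0.60 in normal islets, 8.17 ± 0.21 in hyperplastic islets, 10.44 ± 0.19 in angiogenic islets and 9.57 ± 0.27 in islet tumours, highest in angiogenic islets, and over the fibroblast and matrix list the mean was 7.82 ± 0.36 in normal islets, 8.06 ± 0.01 in hyperplastic islets, 9.53 ± 0.12 in angiogenic islets and 8.44 ± 0.16 in islet tumours. Mpeg1 averaged 7.85 ± 0.21 in normal islets, 8.58 ± 0.05 in hyperplastic islets, 9.58 ± 0.33 in angiogenic islets and 9.54 ± 0.33 in islet tumours. Mpeg1 thus stood at its tumour level in angiogenic islets. Xist averaged 11.14 ± 0.32 in normal islets, 10.87 ± 0.20 in hyperplastic islets, 10.91 ± 0.04 in angiogenic islets and 5.98 ± 0.28 in islet tumours.

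**Figure D4:**
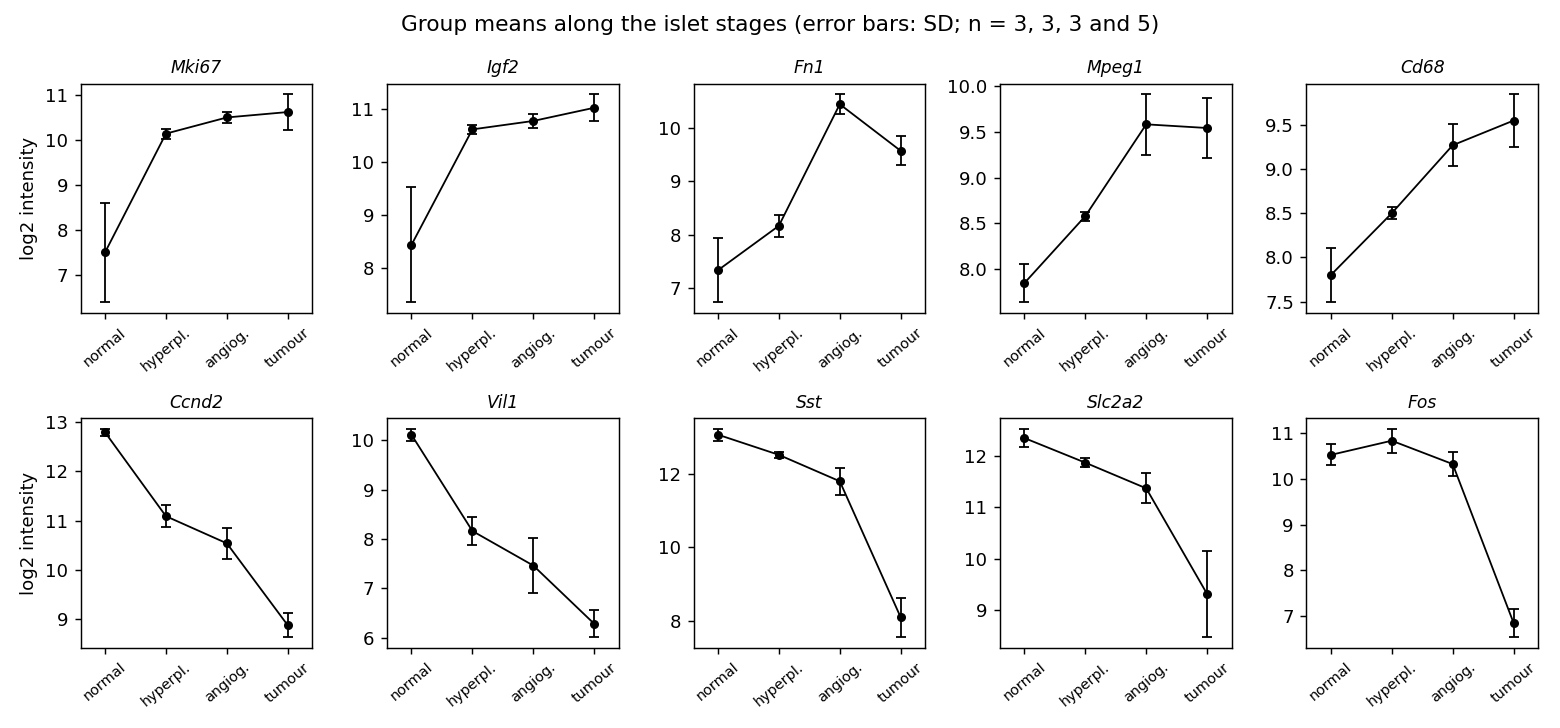
Group means of 10 genes in normal, hyperplastic, angiogenic and tumour samples (x axis, n = 3, 3, 3 and 5), with log2 intensity on the y axis and SD as error bars. Mki67 and Igf2 are near their tumour level in hyperplastic islets, Fn1, Mpeg1 and Cd68 are higher in angiogenic than in hyperplastic islets, and Fos and Sst are lowest in tumours.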

How the data were processed

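RNA of 22 samples was hybridised to Affymetrix Mouse Gene ST arrays. Per the labels' protocols, total RNA was TRIzol-purified, amplified and biotin-labelled by Affymetrix's sense target protocol, and per the series text the scans were processed with aroma.affymetrix. The deposited values are log2 intensities normalized by the authors, a unit read from their range. The version, background correction, normalization and chip definition were not stated there. Array medians lay between 7.08 and 7.22, and no 2 arrays were identical (highest correlation across genes 0.9951). Of 35511 probe sets 23410 were in the gene table used here: 21789 with 1 symbol were kept, 1621 with several were left out, and 12101 were not listed. A gene with several probe sets (999 genes) was read from its brightest on average, which left 19938 genes with no filter on dim ones.

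All arrays were fitted with limma 3.58.1 in R 4.3.3, 1 mean per group. Islet tumours were set against normal islets by limma's two-sided moderated test, adjusted by Benjamini-Hochberg over all genes, with a call below 0.05. The script was tested on simulated data. Gene groups were 51 lists. The members and lists were chosen with earlier results of these data known. Genes named are the 15 top rises and 15 top falls among called genes without overlap (sex-linked genes, predicted genes and receptor families skipped), the 4 members of each list with the smallest adjusted p, other members whose role needed them, and 10 set genes (Ins2, Iapp, Mki67, Vegfa, Sst, Gcg, Pyy, Igf2, Ccnd2 and Asb11). Promoter windows were the first 250 bases of each entry in RefSeq's table (GRCm38.p6), 32851 in all. The alternatives were quantile normalization, centring on the median, testing only the 14953 brightest genes or all 21789 probe sets, fitting only the 8 arrays, array weights, a robust trended variance, a difference of at least 1 log2, a block for the title code, an acinar covariate and leaving out each array in turn.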

Additional observations from a re-analysis of the deposited data

Results flagged for a closer look

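In 21 of 258 values examined (genes named in the text and list means), 1 of the 5 islet tumours stood apart: its gap to the nearest of the others, over the whole range, exceeded Dixon's critical value of 0.71. Chance flags about 1 in 20 such groups.

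III-8017 stood apart in 10 of the 21. It was low in the Y-linked genes Eif2s3y (7.77, others 9.37 to 9.60), Uty (7.34, others 8.62 to 8.98) and Kdm5d (6.88, others 8.03 to 8.27), and so in the mean of the sex-linked list (6.99, others 7.95 to 8.30). It was high in the keratins Krt18 (9.05, others 8.20 to 8.39) and Krt19 (7.31, others 6.33 to 6.55), in Stmn2 (6.97, others 6.33 to 6.45), Mdm2 (9.41, others up to 9.15) and Ddit4 (8.16, others up to 7.74), and low in Ghrl (7.19, others from 7.48).

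III-8024 stood apart in the mean of 17 interferon-response genes, at 8.63 against 7.24 to 7.41 in the other tumours and 7.31 to 7.52 in normal islets. Among them Oas2 stood at 9.31 on this array and at most 7.32 in the other tumours. It was also highest in the chromatin regulators (9.52, others 9.38 to 9.41) and in Hells (10.24, others 9.94 to 10.01).

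II-6415 was high in Egr2 (7.08) and low in Gadd45a (8.82) and Lyz2 (10.40). II-649 was high in Flt1 (9.44) and low in Hspa1a (7.33). I-9811 was high in Fosb (7.45) and low in Mcm3 (9.49) and Suclg1 (8.32).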

How the results depend on the processing

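The number of called genes, 5785, ran from 4583 to 5905 when single arrays were left out, lowest without Normal2006, and from 4447 (8 arrays only) to 6273 (all probe sets) under the other settings, apart from 905 with a difference of at least 1 log2. Testing all probe sets was run for this number only, not for single genes or lists. Of 225 genes chosen by the naming rule 191 were called, 153 of them in every setting run for them other than the 1 log2 threshold, and no called value changed sign. The number of arrays limits what could be called.

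The codes in the sample titles (such as I or III) were tried as a replicate block. Only I-9811 and NormalI-93 share a code across the 2 groups, and their deviations from the group means correlated at -0.082 across genes, against -0.148 to 0.173 for pairs of different code, so the codes were not taken to pair samples. As a fixed term the block left 4470 called genes and as a random block 5752. The fixed block ended the calls of 30 of the 191 called genes chosen by the naming rule, and the random block that of 1. The fixed block moved counts in short lists: called higher were 4 fibroblast and matrix genes (13 without the block), 10 genes of G1 and E2F (16 without), 2 basement membrane genes (6 without) and 5 imprinted genes (8 without). Called lower were 0 secretory granule genes (8 without; 8 with the random block) and 9 genes of the unfolded protein response (16 without).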

Other observations

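Some signalling and neuronal genes not described so far also differed. For the list counts below, 29.0% of all genes were called, 13.0% higher and 16.1% lower. The counts were not tested against these shares. Of 19 neuronal genes 5 were called higher and 2 lower. Elavl3, a neuronal RNA-binding protein, stood at 9.29, 8.83, 8.54, 9.05 and 9.31 in islet tumours, against 6.99, 6.90 and 6.91 in normal islets, 2.07 ± 0.14 (adjusted p = 8.27e-10). The splicing factor Nova1 rose by 0.89, and Stmn2, of growing axons, fell by 1.14. Of 20 genes of transforming growth factor and activin signalling 4 were called higher (2 without Normal2006, Normal2007 or III-8024) and 2 lower. Tgfb1 stood at 8.86, 8.90, 8.85, 8.67 and 8.63 in islet tumours, against 7.47, 7.63 and 7.32 in normal islets, 1.31 ± 0.12 (adjusted p = 5.28e-08). Inha, the inhibin alpha chain, fell by 1.54. Of 19 receptor kinases and their ligands 5 were called higher and 6 lower. The receptor kinase Kit stood at 8.97, 8.83, 8.98, 9.04 and 8.85 in islet tumours, against 7.88, 7.73 and 7.79 in normal islets, 1.13 ± 0.12 (adjusted p = 4.5e-07), and Met, the receptor of hepatocyte growth factor, fell by 1.15. Of 21 Wnt and Notch genes 4 were called higher (2 without Normal2006 or Normal2007) and 4 lower. Sfrp5, a secreted Wnt antagonist, stood at 6.27, 6.53, 6.64, 6.14 and 6.26 in islet tumours, against 9.11, 9.17 and 9.29 in normal islets, -2.82 ± 0.16 (adjusted p = 1.31e-10). In none of Elavl3, Tgfb1, Kit and Sfrp5 did a tumour overlap a normal islet.

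Of 19 ion channel genes 3 were called higher and 6 lower. Kcnn3, a calcium-activated potassium channel, stood at 7.39, 8.42, 8.63, 6.90 and 7.87 in islet tumours, against 9.74, 9.86 and 9.94 in normal islets, -2.01 ± 0.26 (adjusted p = 3.99e-06). The sodium channel Scn3a fell by 1.27, and the potassium channel Kcnc1 rose by 0.47. Of 13 genes of GABA and glutamate signalling 5 were called higher and 1 lower. The vesicular glutamate carrier Slc17a6 rose by 1.22, and the receptor genes Gabra4, Gria3 and Gabbr2 by 0.98, 0.83 and 0.56. The gene that fell was Gad1, which makes GABA (-1.60), with the tumours spread from 7.31 to 9.06. Of 14 genes of the family of Bcl2l1 2 were called higher (1 without Normal2006 or II-6415) and 3 lower. Bcl2l11, which encodes the death activator Bim, rose by 0.75, and the survival gene Bcl2l1 fell by 0.51.

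Of 12 antigen presentation genes 4 were called lower, and 0 without Normal2006 or without Normal2007. Of 14 genes known as drivers of neuroendocrine tumours 7 were called higher (4 without Normal2006) and 0 lower.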
